A study of Mus musculus with 6 samples.

Results

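Proximal tubule cells of the kidney retrieve filtered protein by clathrin-mediated endocytosis and break it down in lysosomes. The 34 genes described here encode the parts of that route: the clathrin coat and its AP-2 adaptor, the phosphoinositide phosphatases and chloride exchanger of early endosomes, the Rab GTPases that mark each compartment, the recycling and sorting machinery, the proton pump, and the membrane proteins and proteases of the lysosome. They were listed by name for their place in the route, with earlier results of these data known. Of the 34, 33 had a probe set annotated with that single gene, out of 18193 genes measured. For each gene the probe set with the highest mean over the 6 arrays was read. The tetraspanin Cd63 was not analysed here.

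The study profiled whole kidney RNA from 3 mice with the soluble intracellular domain of megalin (ICD) and 3 wild-type (WT) littermates on Affymetrix arrays, with 1 array per mouse. All 6 animals were male and 10 weeks old, and the ICD animals carried the domain in the heterozygous state. Megalin (Lrp2) binds many filtered proteins at the apical surface of proximal tubule cells, and its cytoplasmic tail can be released as a soluble fragment. The labels do not give the promoter that drives the domain or the cells that make it. In whole tissue, fewer cells of a type and less RNA per cell cannot be told apart.

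In the route itself, receptors gather in clathrin-coated pits, dynamin cuts the pit from the membrane, and the vesicle fuses with early endosomes under the control of Rab5. The proton pump and the chloride exchanger acidify the endosome so that ligand leaves its receptor. Receptors then return to the surface through Rab4, Rab11, EHD and retromer-type machinery, while ligand moves on through Rab7-positive late endosomes to lysosomes. Many lysosomal genes carry a CACGTG box (an E-box) near the start of transcription, which the transcription factors of the MiT/TFE family can bind.

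None of the 33 genes passed the test between ICD and WT kidneys. The adjusted p (limma, Benjamini-Hochberg over 45037 probe sets) lay between 0.927 and 0.9998 for these genes, and 0 of the 45037 probe sets (0%) had an adjusted p under 0.05. At an unadjusted p under 0.05, 0 of the 33 genes were called, against 716 of 18193 genes (3.94%). The point estimates were 18 higher and 15 lower in ICD kidneys, with a median difference of 0.0039 on the log2 scale beside -0.012 over all genes. The estimates ran from -0.12 for Atp6v1a to 0.11 for Rab5c, which are ratios of 0.918 and 1.08, and 30 of the 33 lay within 0.1 of zero.

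The intervals show what size of difference these arrays could have missed at the brightest probe set of each gene. Over the 33 genes these 95% confidence intervals reached as low as -0.30 (Ap2a1) and as high as 0.35 (Ocrl). The widest bounds were thus changes of -18.9% and 27.8% in ICD kidneys relative to WT kidneys. For 30 of the 33 genes the whole interval at this probe set lay within 0.3 of zero. Over all 79 probe sets of these genes the intervals reached further, from -0.69 to 1.25. The median absolute difference was 0.023 for the route genes, against 0.058 over all genes and 0.047 over the 6984 genes whose probe set lay at or above the 75th percentile of brightness. The median range over the 6 arrays was 0.18, against 0.27 over all genes, and 13 of the 33 stayed within a range of 0.15. The route genes were also brighter, with a median brightness percentile of 95.7 against 65.2 over all genes. The median residual SD within groups was 0.072 for the route genes and 0.098 over all genes. For genes at or above the 75th percentile of brightness it was 0.084. The plot of each gene's difference shows every interval crossing zero.

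**Figure D1:**
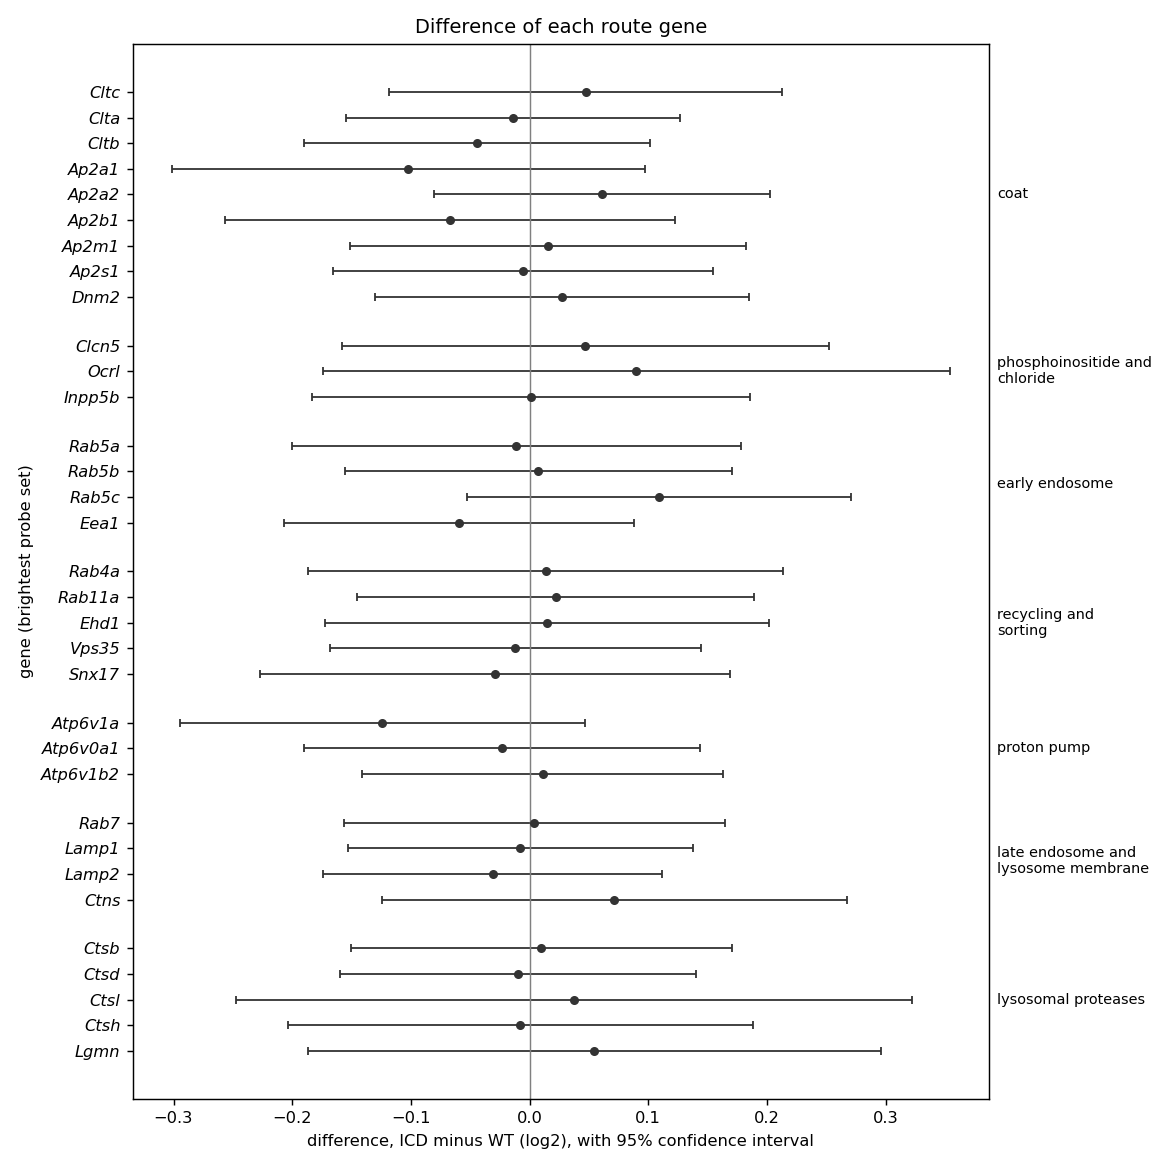
Difference in log2 signal between ICD and WT kidneys (x axis, ICD minus WT) for each of the 33 genes (y axis, grouped by step of the route). Points are estimates and bars are 95% confidence intervals from limma (n = 3 mice per group); all 33 bars cross zero, and the estimates lie between -0.12 and 0.11.

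Promoter sequence was read next, because the E-box offers a feature that links many lysosomal genes. RefSeq promoters of build GRCm38.p6, 250 bases before to 50 after each start, were at hand for 27 of the 33 genes. CACGTG, which reads the same on both strands, was present in 7 of these 27 genes (25.9%), against 2187 of 27025 genes with a promoter (8.09%) and 7.15% of all 32851 promoters of that length. The 8-base form TCACGTGA, which contains the E-box and also reads the same on both strands, was present in 3 of 27 (Rab5a, Atp6v1a and Ctsd; 11.1%), against 1.12% of all genes and 0.974% of all promoters. Base composition was not matched in these shares, and a match describes the letters only. For each of the 7 genes the window around the box nearest the start is printed 5′ to 3′ on the strand of the gene, with the E-box in capitals, to show the motif in its setting. The 3 phosphoinositide and chloride genes, and the 2 recycling and sorting genes with a promoter in the table, held none.
Ap2m1: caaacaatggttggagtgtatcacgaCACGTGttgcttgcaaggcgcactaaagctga
Rab5a: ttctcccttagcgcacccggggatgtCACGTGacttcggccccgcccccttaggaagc
Atp6v1a: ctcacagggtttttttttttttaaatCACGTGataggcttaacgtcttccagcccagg
Lamp1: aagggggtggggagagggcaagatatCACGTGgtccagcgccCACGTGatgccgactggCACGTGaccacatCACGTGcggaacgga
Ctsd: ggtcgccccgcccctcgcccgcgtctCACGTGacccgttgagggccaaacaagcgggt
Ctsl: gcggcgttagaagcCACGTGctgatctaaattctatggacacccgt
Lgmn: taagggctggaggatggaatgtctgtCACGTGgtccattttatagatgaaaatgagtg

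The window of Lamp1 (chr8:13159074-13159160, plus strand) held 4 boxes, the nearest of them 15 bases before the start. The box of Ap2m1 (chr16:20535280-20535337, plus strand) lay 174 bases before the start and that of Atp6v1a (chr16:44139359-44139416, minus strand) 131 bases before it. Rab5a held 2 boxes, the printed one (chr17:53479113-53479170, plus strand) 95 bases and the other 235 bases before the start. Ctsd also held 2, the printed one (chr7:142387894-142387951, minus strand) 98 bases and the other 245 bases before the start. Ctsl (chr13:64370725-64370770, minus strand) had its box 236 bases and Lgmn (chr12:102439110-102439167, minus strand) 49 bases upstream. All 3 protease genes with a promoter in the table held the box, as did 1 of the 9 coat genes. The 7 genes with the box had a median difference of -0.0077 (3 higher and 4 lower in ICD kidneys), beside 0.0027 (11 higher and 9 lower) for the 20 genes whose window held none.

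The coat genes form the outer step. The 9 genes gave 4 higher and 5 lower estimates in ICD kidneys, with a median difference of -0.0052. Cltc, the clathrin heavy chain that builds the lattice, had log2 signals of 12.14, 12.32 and 12.24 on the ICD arrays and 12.18, 12.14 and 12.23 on the WT arrays. The groups overlapped, and the difference was 0.047 (95% interval -0.12 to 0.21). Clta, a clathrin light chain, was the steadiest of all 33 genes, with 12.74, 12.76 and 12.73 in ICD kidneys and 12.76, 12.74 and 12.78 in WT kidneys, a range of 0.044 over the 6 arrays. Its difference was -0.014 (interval -0.15 to 0.13). Cltb, the other light chain, had 10.16, 10.21 and 10.21 in ICD kidneys and 10.28, 10.21 and 10.21 in WT kidneys. All WT values of Cltb lay above all ICD values, but by a gap of 0.0031 only, and the difference was -0.045 (interval -0.19 to 0.10; limma adjusted p = 0.981).

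The AP-2 adaptor links cargo and membrane lipid to clathrin and has alpha, beta, mu and sigma subunits. Ap2a1, an alpha subunit, had 8.81, 8.62 and 8.90 in ICD kidneys against 8.87, 8.81 and 8.95 in WT kidneys. The ICD 2 array held the low value, and the difference of -0.10 (interval -0.30 to 0.097) was the lowest in the coat. Ap2a2, the other alpha subunit, pointed the opposite way, with 10.12, 10.17 and 10.12 in ICD kidneys and 10.07, 10.09 and 10.07 in WT kidneys. The 2 groups of Ap2a2 did not overlap, with a difference of 0.061 ± 0.062 (SE, n = 3 per group; interval -0.081 to 0.20; limma adjusted p = 0.970). Ap2b1, the beta subunit, had 8.71, 8.77 and 8.63 in ICD kidneys and 8.63, 8.85 and 8.83 in WT kidneys, a difference of -0.067 (interval -0.26 to 0.12). Ap2m1, the mu subunit that binds the cargo signal, had 11.78, 11.97 and 11.80 in ICD kidneys and 11.84, 11.84 and 11.82 in WT kidneys. The ICD 2 value stood above the other 5 arrays, and the groups differed by 0.016 (interval -0.15 to 0.18). Ap2s1, the sigma subunit, and Dnm2, the dynamin that cuts the vesicle free, differed by -0.0052 (interval -0.17 to 0.16) and 0.028 (interval -0.13 to 0.19).

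**Figure D2:**
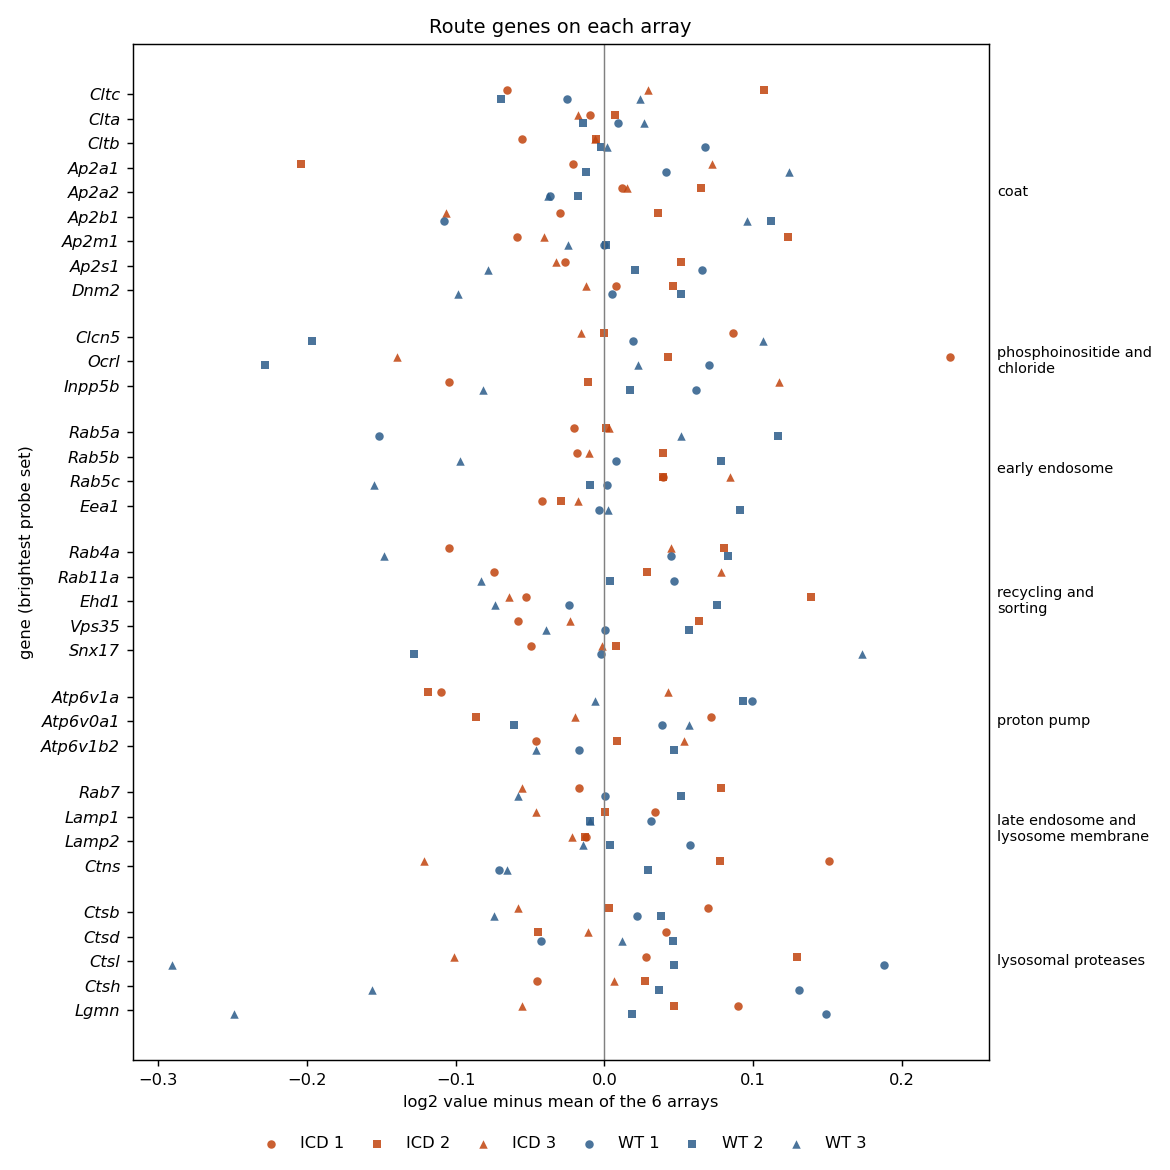
Log2 signal of each of the 33 genes on each array, minus the mean of that gene over the 6 arrays (x axis, log2), with genes by step of the route (y axis). Orange symbols are ICD mice 1 to 3 and blue symbols WT mice 1 to 3; the symbols of the 2 groups mix for 29 genes, Ap2a2, Rab5c, Cltb and Eea1 being the exceptions, and WT 3 is lowest for 4 of the 5 proteases.

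Clcn5, Ocrl and Inpp5b are the genes of endosomal chloride and phosphoinositide handling. Clcn5 encodes the chloride-proton exchanger of early endosomes, whose loss in humans causes Dent disease with low molecular weight proteinuria. It had 12.12, 12.04 and 12.02 in ICD kidneys and 12.06, 11.84 and 12.14 in WT kidneys. The lowest and the highest Clcn5 value were both WT, and the difference was 0.047 (interval -0.16 to 0.25). Ocrl, the phosphatase mutated in Lowe syndrome, had 7.60, 7.41 and 7.23 in ICD kidneys and 7.44, 7.14 and 7.39 in WT kidneys. This was a difference of 0.090 (interval -0.17 to 0.35) with a wide spread inside each group, 0.19 in ICD and 0.16 in WT kidneys as SDs. Inpp5b, a phosphatase related to Ocrl, had 10.70, 10.80 and 10.93 in ICD kidneys and 10.87, 10.83 and 10.73 in WT kidneys, a difference of 0.0015 (interval -0.18 to 0.19). All 3 estimates were above zero and none passed the test.

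Early endosomes are marked by the Rab5 GTPases and their tether Eea1. Rab5c had 10.24, 10.24 and 10.28 in ICD kidneys and 10.20, 10.19 and 10.04 in WT kidneys. Every ICD value lay above every WT value, with WT 3 the lowest. The difference of 0.11 ± 0.071 (SE, n = 3 per group; interval -0.053 to 0.27) was the highest of the 33 genes, with a limma unadjusted p of 0.161 and an adjusted p of 0.932. Without WT 3 it was 0.058. Rab5a had 11.04, 11.06 and 11.07 in ICD kidneys and 10.91, 11.18 and 11.12 in WT kidneys, so the ICD values lay inside the WT range, with a difference of -0.011 (interval -0.20 to 0.18). Rab5b differed by 0.0072 (interval -0.16 to 0.17). Eea1, which tethers vesicles to the endosome, had 9.37, 9.38 and 9.39 in ICD kidneys and 9.41, 9.50 and 9.41 in WT kidneys. The ICD values of Eea1 lay just below the WT values, by a gap of 0.014, and the difference was -0.060 ± 0.064 (SE, n = 3 per group; interval -0.21 to 0.088; limma adjusted p = 0.975).

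Groups that did not overlap were thus found for 4 of the 33 genes (12.1%), with Ap2a2 and Rab5c higher and Cltb and Eea1 lower in ICD kidneys. Over all genes the same separation was found for 1655 of 18193 (9.1%), so the share among the route genes was near the background.

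The recycling and sorting genes return receptors from endosomes to the surface. Rab4a, the GTPase of fast recycling, had 9.90, 10.08 and 10.05 in ICD kidneys and 10.05, 10.08 and 9.85 in WT kidneys. Rab11a, the GTPase of the recycling endosome, had 11.19, 11.30 and 11.35 in ICD kidneys and 11.31, 11.27 and 11.19 in WT kidneys. Snx17, a sorting nexin that recycles receptors of the LDL receptor family, had 11.98, 12.03 and 12.02 in ICD kidneys and 12.02, 11.90 and 12.20 in WT kidneys. In each of these genes the groups overlapped, and for Snx17 the WT values bracketed all ICD values. The differences were 0.014 for Rab4a, 0.022 for Rab11a and -0.029 (interval -0.23 to 0.17) for Snx17. Ehd1, an ATPase that shapes recycling tubules, and Vps35, the core of retromer, differed by 0.015 and -0.012. The step as a whole had a median difference of 0.014, with 3 higher and 2 lower.

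The vacuolar proton pump has a cytoplasmic V1 part that splits ATP and a membrane V0 part that passes protons. Atp6v1a, the catalytic V1 subunit, had 12.70, 12.70 and 12.86 in ICD kidneys and 12.91, 12.91 and 12.81 in WT kidneys. ICD 1 and ICD 2 lay below all WT values, while ICD 3 lay above WT 3. The difference of -0.12 ± 0.074 (SE, n = 3 per group; interval -0.29 to 0.047) was the lowest of the 33 genes, with a limma unadjusted p of 0.133 and an adjusted p of 0.927. A second Atp6v1a probe set (1450634_at) had 12.67, 12.68 and 12.73 in ICD kidneys and 12.69, 12.59 and 12.71 in WT kidneys, a difference of 0.032 with the opposite sign. The V1 subunit Atp6v1b2 and the V0 subunit Atp6v0a1 differed by 0.011 (interval -0.14 to 0.16) and -0.023 (interval -0.19 to 0.14). The pump is also present in intercalated cells. The intercalated cell marker score (mean over 7 markers of the log2 value minus its 6-array mean) was 0.013, 0.093 and -0.12 on the ICD arrays. On the WT arrays it was -0.0048, -0.059 and 0.079. Its markers included the pump subunits Atp6v1b1, Atp6v0a4 and Atp6v0d2, so the score was itself partly made of pump genes. The part of intercalated cells in the pump values was not tested.

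Late endosomes and lysosome membranes were represented by Rab7, Lamp1, Lamp2 and Ctns. Rab7, the GTPase of late endosomes, had 12.05, 12.14 and 12.01 in ICD kidneys and 12.06, 12.11 and 12.00 in WT kidneys. Lamp1, a major glycoprotein of the lysosome membrane, had 13.66, 13.63 and 13.58 in ICD kidneys and 13.66, 13.62 and 13.62 in WT kidneys. Lamp2, its relative with a role in autophagy, had 13.20, 13.20 and 13.19 in ICD kidneys and 13.27, 13.22 and 13.20 in WT kidneys. These were among the steadier genes, with differences of 0.0039 for Rab7, -0.0077 (interval -0.15 to 0.14) for Lamp1 and -0.031 (interval -0.17 to 0.11) for Lamp2. Ctns, the cystine exporter whose loss causes cystinosis in humans, had 8.01, 7.94 and 7.74 in ICD kidneys and 7.79, 7.89 and 7.79 in WT kidneys. ICD 1 and ICD 2 held the highest Ctns values and ICD 3 the lowest, for a difference of 0.072 (interval -0.12 to 0.27).

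The lysosomal proteases cleave the ligands that megalin delivers, and some of them varied widely between animals. Ctsl, a cysteine protease, had 12.78, 12.89 and 12.65 in ICD kidneys and 12.94, 12.80 and 12.47 in WT kidneys, and its range of 0.48 was the widest of the 33 genes. Lgmn, the asparaginyl endopeptidase legumain that also matures other cathepsins, had 11.69, 11.65 and 11.54 in ICD kidneys and 11.75, 11.62 and 11.35 in WT kidneys. Ctsh, an aminopeptidase, had 12.10, 12.17 and 12.15 in ICD kidneys and 12.28, 12.18 and 11.99 in WT kidneys. For all 3 genes WT 1 was the highest array and WT 3 the lowest, so that the WT mice spanned the ICD mice. The differences were 0.037 (interval -0.25 to 0.32) for Ctsl, 0.055 (interval -0.19 to 0.30) for Lgmn and -0.0078 (interval -0.20 to 0.19) for Ctsh. Ctsb, a cysteine protease, had 12.94, 12.87 and 12.81 in ICD kidneys and 12.89, 12.91 and 12.80 in WT kidneys, and Ctsd, the aspartic protease, had 11.93, 11.84 and 11.88 in ICD kidneys and 11.85, 11.93 and 11.90 in WT kidneys. Their differences were 0.0099 (interval -0.15 to 0.17) and -0.0099 (interval -0.16 to 0.14).

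WT 3 was the lowest array for 14 of the 33 route genes (42.4%), against 17.1% of all genes, and for 4 of the 5 proteases. The protease score (mean over the 5 genes of the log2 value minus its 6-array mean) was 0.037, 0.032 and -0.044 on the ICD arrays and 0.089, 0.037 and -0.15 on the WT arrays. The proximal tubule score was also lowest on WT 3. Over 10 markers it was 0.15, 0.14 and 0.26 on the ICD arrays and 0.26, 0.062 and -0.87 on the WT arrays. WT 3 was lowest for 6 of the 10 markers and highest for 1, Slc27a2 (14.67). The marker with the widest spread, Slc5a12, a lactate transporter of the proximal tubule, had 9.30, 9.27 and 10.47 in ICD kidneys against 10.35, 9.82 and 4.12 in WT kidneys. Its range of 6.35 over the 6 arrays made it weigh most in the score of WT 3. Ranges were 0.11 for Slc22a6 and 0.097 for Slc13a3. Among the ICD arrays, ICD 3 had the highest tubule score and the lowest protease score. Slc5a12 was also highest on ICD 3 and weighed most in that tubule score. Endothelial markers were lowest on WT 3 for 7 of 8 and highest on WT 1 for 6 of 8, with scores of -0.045, 0.019 and 0.19 on the ICD arrays and 0.28, -0.079 and -0.36 on the WT arrays. Stromal markers were lowest on WT 3 for 4 of 6 and highest on WT 1 for 4 of 6, with scores of -0.057, -0.12 and 0.26 on the ICD arrays and 0.33, -0.12 and -0.29 on the WT arrays. Both lists had WT 1 highest and WT 3 lowest, as the proteases did among the WT mice. Over 10 myeloid markers the score was 0.0054, -0.16 and 0.15 on the ICD arrays and 0.072, 0.022 and -0.089 on the WT arrays. Among the WT mice alone, the tubule and myeloid scores thus also had WT 1 highest and WT 3 lowest. Other lists went the opposite way on WT 3. It was highest for 5 of 5 principal cell markers (score 0.19) and 3 of 5 thick ascending limb markers (score 0.12). Without WT 1, and also without WT 2, the split of the route genes was 21 higher and 12 lower in ICD kidneys. Without WT 3 the split was 9 higher and 24 lower, with a median of -0.018. The protease median was then -0.056, against 0.0099 with all arrays and 0.056 without WT 1. The part of the tubule, endothelial, stromal and myeloid markers in these shifts was not tested. The scores of the coat genes stayed between -0.028 and 0.025 on every array.

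The kidney label was checked on defining markers. Slc34a1, the phosphate transporter of the proximal tubule, had 14.14, 14.14 and 14.22 in ICD kidneys and 14.17, 14.14 and 13.92 in WT kidneys. Umod, the uromodulin gene of the thick ascending limb, had 14.42, 14.33 and 14.37 in ICD kidneys and 14.32, 14.40 and 14.43 in WT kidneys. Both were present on every array, while Slc5a12 on WT 3, given above, was low. Podocyte markers were higher in ICD kidneys, all 6 of 6 without overlap (9.1% over all genes, in either direction), with scores of 0.14, 0.24 and 0.27 on the ICD arrays and -0.083, -0.32 and -0.24 on the WT arrays. None of the 6 passed limma's adjusted threshold (lowest adjusted p = 0.642), and their part in the route values was not tested. Lrp2, the receptor the route serves, differed by 0.0079 (interval -0.17 to 0.18) at its brightest probe set. A second Lrp2 probe set (1427133_s_at) had 12.25, 12.37 and 12.26 in ICD kidneys and 13.01, 12.97 and 12.13 in WT kidneys, a difference of -0.41 (interval -0.89 to 0.068). WT 3 was the lowest of the 6 arrays there, while WT 1 and WT 2 lay above all ICD values.

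**Figure D3:**
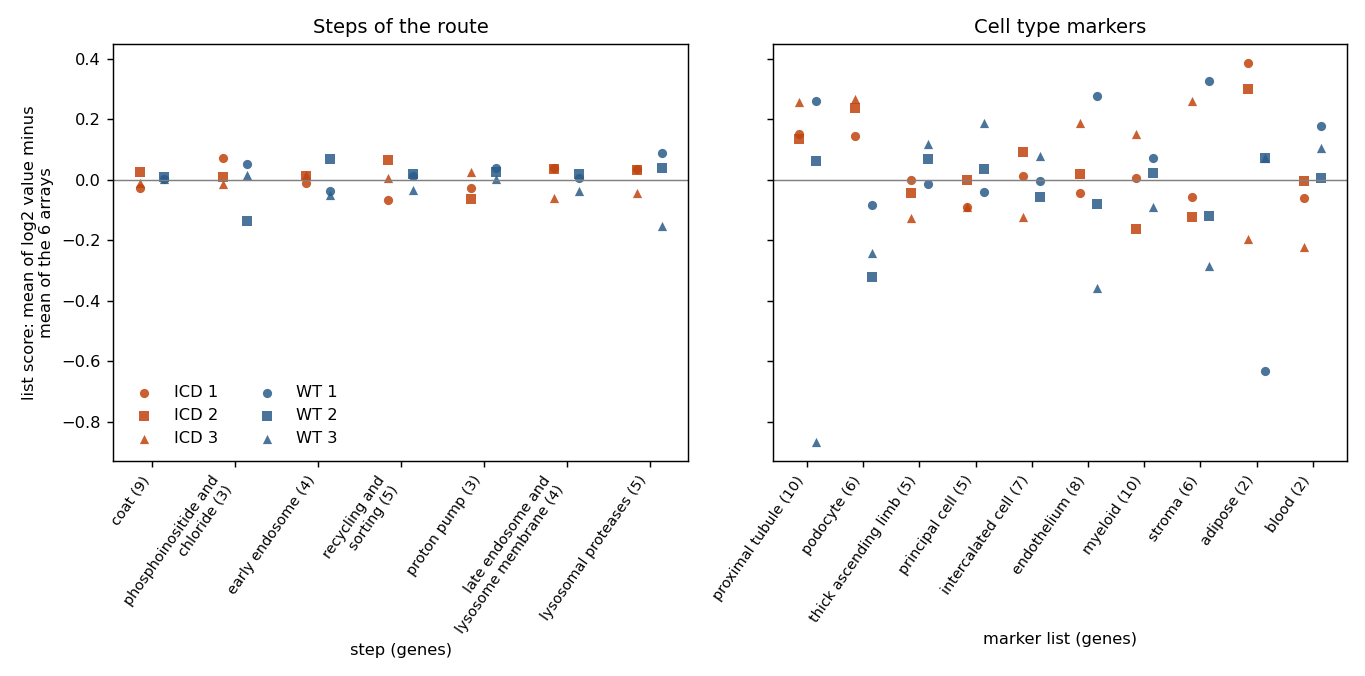
Score of each step of the route (left) and of each cell type marker list (right): the mean over genes of the log2 value minus the 6-array mean (y axis, log2), with the number of genes in brackets. Orange symbols are ICD mice 1 to 3 and blue symbols WT mice 1 to 3. The protease score is lowest on WT 3 (-0.15), as is the proximal tubule score (-0.87), in which Slc5a12 weighs most. All 3 ICD mice lie above all WT mice for podocyte markers.

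The 33 genes had 79 probe sets in all, and 21 genes had more than 1. Over the 79, 48 estimates were higher and 31 lower in ICD kidneys, and 0 were called by the adjusted test. Of the 46 probe sets that were not the brightest of their gene, 23 had the sign of the brightest one. An unadjusted p under 0.05 was found for 4 of the 79, against 2641 of 45037 probe sets (5.86%). These 4 are named after their values were seen. The dimmer Cltc probe set (1439094_at) had 7.80, 8.03 and 7.81 in ICD kidneys and 7.27, 7.40 and 7.80 in WT kidneys, a difference of 0.39 ± 0.14 (SE, n = 3 per group; limma unadjusted p = 0.0202, adjusted p = 0.762). WT 3 overlapped the ICD values there, and the brightest Cltc probe set showed 0.047. An Ocrl probe set (1457313_at) had 6.06, 5.84 and 5.87 in ICD kidneys and 5.59, 5.75 and 5.72 in WT kidneys, a difference of 0.24 ± 0.085 (SE, n = 3 per group; limma adjusted p = 0.766) without overlap. A dim Ctsb probe set (1444987_at) had a difference of 0.21 (limma adjusted p = 0.840). The Rab11a probe set 1434549_at went the opposite way from the brightest one: it had 9.35, 9.48 and 9.44 in ICD kidneys and 9.53, 9.65 and 9.58 in WT kidneys, a difference of -0.16 (interval -0.32 to -0.0013; limma adjusted p = 0.849). The reason for such disagreement between probe sets of a gene was not tested.

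**Figure D4:**
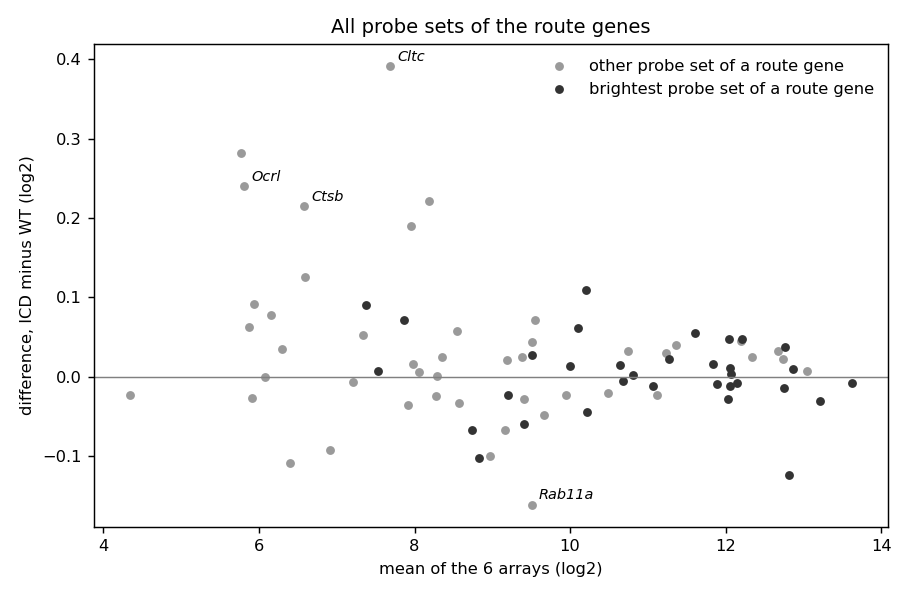
Difference in log2 signal between ICD and WT kidneys (y axis, ICD minus WT) against the mean log2 signal over the 6 arrays (x axis) for the 79 probe sets of the 33 genes. Black points are the brightest probe set of each gene and grey points the others; the 4 named probe sets, all grey, have an unadjusted p under 0.05, and the black points lie between -0.12 and 0.11.

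Further genes of the same route were read from 7 lists. Of 149 genes, 140 were measured: 67 estimates were higher and 73 lower in ICD kidneys, the median was -0.0065, and 0 were called by limma's adjusted test. An unadjusted p under 0.05 was found for 5 of the 140, beside the 3.94% of all genes. By list, the coat accessory proteins such as epsins and intersectins gave 8 higher and 11 lower of 19 (median -0.0089), the early endosome regulators 7 and 7 of 14 (median 0.0062), and the recycling and retromer genes 12 and 9 of 21 (median 0.0096). The ESCRT and fusion genes, which sort cargo into late endosomes, gave 14 higher and 15 lower of 29 (median -0.0059). The other proton pump subunits gave 4 higher and 9 lower of 13 (median -0.023), with 0 at an unadjusted p under 0.05. The lysosomal hydrolases and membrane proteins gave 22 higher and 19 lower of 41 (median 0.012), with 3 of the 5 genes at an unadjusted p under 0.05. The MiT/TFE factors Tfeb, Tfe3 and Mitf gave 3 lower estimates, with a median of -0.028. WT 3 was the lowest array for 33 of these 140 genes (23.6%).

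Groups did not overlap for 6 genes that were higher and 4 that were lower in ICD kidneys among the 140, beside the 9.1% of all genes. The 5 genes with an unadjusted p under 0.05 were among them. Laptm4b, a membrane protein of late endosomes and lysosomes, had 11.17, 11.10 and 11.14 in ICD kidneys and 11.30, 11.34 and 11.48 in WT kidneys, a difference of -0.24 ± 0.073 (SE, n = 3 per group; limma unadjusted p = 0.0112, adjusted p = 0.720). Clcn7, the chloride-proton exchanger of lysosomes, had 9.28, 9.06 and 9.27 in ICD kidneys and 8.92, 8.99 and 9.03 in WT kidneys, a difference of 0.22 ± 0.081 (SE, n = 3 per group; limma adjusted p = 0.798). The gap between the groups was 0.13 for Laptm4b and 0.031 for Clcn7. Rab11fip3, which links Rab11 to motors, had 10.95, 10.96 and 10.92 in ICD kidneys and 10.76, 10.84 and 10.61 in WT kidneys, a difference of 0.21 (limma adjusted p = 0.798). Ctsa, a carboxypeptidase that protects lysosomal glycosidases, had 11.54, 11.65 and 11.53 in ICD kidneys and 11.46, 11.36 and 11.40 in WT kidneys, a difference of 0.16 (limma adjusted p = 0.842). Mon1b, part of the exchange factor that recruits Rab7, had 6.71, 6.48 and 6.48 in ICD kidneys and 6.74, 6.73 and 6.76 in WT kidneys, a difference of -0.19 (limma adjusted p = 0.851). None of the 5 passed the adjusted threshold.

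**Figure D5:**
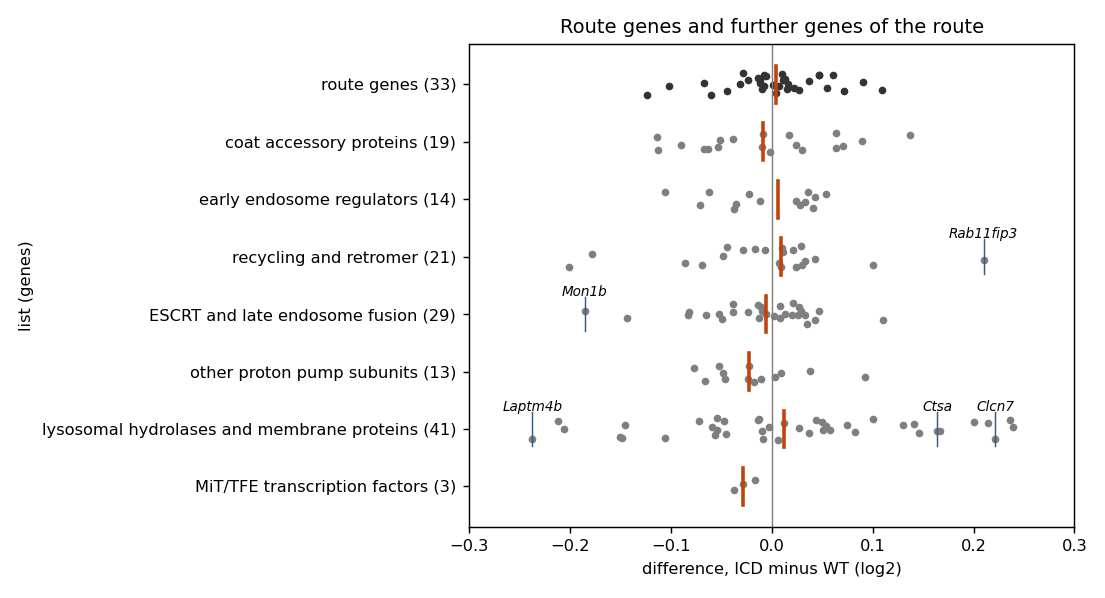
Difference in log2 signal between ICD and WT kidneys (x axis, ICD minus WT) for the 33 route genes and the 140 further genes, 1 row per list with the number of genes in brackets (y axis). Each point is a gene, orange bars are list medians, which lie between -0.028 and 0.012, and the 5 genes with an unadjusted p under 0.05 are named.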

How the data were processed

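Whole kidney RNA of 6 mice was measured, 1 Affymetrix array each. The deposited values are on the log2 scale and were made by the authors with RMA, which corrects background, normalizes between arrays and summarizes probes, per the submitters' processing notes; its version, the chip definition and any filter are not given in the sources used here. Array medians lay between 6.62 and 6.66. Of 45101 rows, 64 controls were left out. Platform annotation gave 1 symbol to 34945 of the 45037 others, several to 932 and none to 9160.

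Differences (ICD minus WT) were fitted by the linear models of limma 3.58.1 (R 4.3.3; default eBayes, two-sided, genotype alone), with Benjamini-Hochberg adjustment over all 45037 probe sets and 0.05 as threshold. Genes were read at their brightest probe set, and the number of arrays limits the precision. All route genes were named, and a further gene where its unadjusted p was under 0.05. Genes and lists were chosen with earlier results of these data known. Alternatives were other priors, array weights, normalizations, probe set choices, a brightness filter, a replicate block and each array left out. Code was tested on simulated data.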

Additional observations from a re-analysis of the deposited data

How the results depend on the processing

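No route gene was called under any of the 14 alternatives, and the smallest adjusted p of a route gene in any of them was 0.786. Of 461 values of single genes in these alternatives, 392 kept their sign and 69 turned it. Many of the 392 could not turn: the trended and robust prior, the brightness filter and the replicate block leave each difference unchanged. Averaging probe sets cannot change the 12 genes with 1 probe set. Setting _s_at and _x_at aside can change only genes among the 7 whose brightest probe set is of these kinds. Snx17, among these 7, has no other probe set and so gave no value in that setting. Signs turned in at least 1 setting for 24 of the 33 genes, the largest difference among these being 0.090 (Ocrl). The 9 others were Cltc, Cltb, Ap2a1, Ap2a2, Ap2b1, Rab5c, Eea1, Atp6v1a and Ctns. For Ap2a2, Cltb, Rab5c and Eea1 the sign cannot turn when an array is left out, since their groups do not overlap. The split of 18 higher and 15 lower became 12 and 21 with array weights, 14 and 19 with a further quantile normalization, and 15 and 18 with each array centred on its median. It was 19 and 14 without ICD 1, 14 and 19 without ICD 2, and 16 and 17 without ICD 3. Without WT 1 it was 21 and 12, without WT 2 also 21 and 12, and without WT 3 it was 9 and 24. Over all probe sets, 1 was called with the trended and robust prior, and between 0 and 1 with an array left out (1 without ICD 1, ICD 2 or WT 3), against 0 otherwise. The median over the route genes lay between -0.018 (without WT 3) and 0.013 (without WT 2). Same-numbered arrays did not deviate together (correlations between -0.047 and 0.0077), and 0 of the 6 arrays correlated best with their own number. With the replicate number as a block, the differences were the same, 0 route genes and 0 probe sets were called, and 721 genes had an unadjusted p under 0.05, against 716.

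With array weights the difference turned for Ap2m1 (-0.0050), Inpp5b (-0.0066), Rab5b (-0.0012), Rab4a (-0.0076), Ehd1 (-0.0088) and Rab7 (-0.0089). With a further quantile normalization it turned for Inpp5b (-0.0037), Rab5b (-0.0079), Rab7 (-0.0027) and Ctsb (-0.0017), and with median centring for Inpp5b (-0.0059), Rab5b (-0.00019) and Rab7 (-0.0035). Averaging every probe set of the gene turned it for Clta (0.0064), Dnm2 (-0.011), Rab4a (-0.027), Rab11a (-0.070), Ehd1 (-0.023), Vps35 (0.10), Atp6v1b2 (-0.0090), Rab7 (-0.0083), Lamp2 (0.0059) and Ctsh (0.012). With probe sets of the kinds _s_at and _x_at set aside it turned for Clta (0.039), Dnm2 (-0.029), Rab4a (-0.067) and Ehd1 (-0.023). With 1 array left out at a time the sign turned, within these ranges, for Ap2m1 (-0.042 to 0.049), Ap2s1 (-0.046 to 0.026), Dnm2 (-0.015 to 0.060), Clcn5 (-0.039 to 0.11), Ocrl (-0.0034 to 0.18), Inpp5b (-0.057 to 0.054), Rab5a (-0.090 to 0.044), Rab5b (-0.039 to 0.048), Rab4a (-0.057 to 0.069), Rab11a (-0.014 to 0.065), Ehd1 (-0.051 to 0.056), Vps35 (-0.047 to 0.014), Snx17 (-0.100 to 0.051), Atp6v0a1 (-0.065 to 0.014), Atp6v1b2 (-0.013 to 0.037), Rab7 (-0.034 to 0.033), Lamp1 (-0.027 to 0.013), Ctsb (-0.025 to 0.041), Ctsd (-0.034 to 0.011), Ctsl (-0.099 to 0.14), Ctsh (-0.088 to 0.056) and Lgmn (-0.056 to 0.14). The causes were not tested. With 3 arrays per group, the intervals set the limit on what could be seen.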
